A study of Mus musculus with 6 samples.

Results

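The genes Ctsa, Ctsb, Ctsc, Ctsd, Ctsf, Ctsh, Ctsl, Ctss, Ctsz and Lgmn encode proteases of the lysosome, 9 cathepsins and legumain. They were taken by symbol from the deposited count table, which held 55493 genes, and all 10 were found. All 10 passed the filter on low counts, as did 18210 genes in all. RNA came from microglia, which are brain macrophages, sorted from a hemisphere by low CD45 and positive CD11b staining. All mice were males of the genotype ILT Telo Tg x 5XFAD. Thus both groups carried the human LILR-region transgene together with 5XFAD, which models Alzheimer amyloid deposition. The treated group received the Fc-mutant antibody ZM3.1 against human LILRB4, an inhibitory receptor of myeloid cells also called ILT3. The control group received the Fc-mutant antibody 27D6, labelled Ctrl IgG2a. Both were given at 60 mg/kg by 8 weekly intraperitoneal injections from 4 months of age, with 3 libraries per group. The comparison sets weeks of LILRB4 antibody against weeks of the control antibody. No group without the transgene or without amyloid is among these samples.

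Cathepsins are made as inactive precursors, sorted to endosomes and lysosomes largely by mannose 6-phosphate tags, and activated there at acid pH. Most belong to the papain family of cysteine proteases and are held in check by cystatins, whereas cathepsin D is an aspartic protease, cathepsin A a serine carboxypeptidase, and legumain a cysteine protease that cuts after asparagine. In microglia they degrade phagocytosed proteins and process antigen for MHC class II. Transcript levels do not measure protease activity.

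Library totals were 44369561, 56345514 and 41948140 reads in anti-LILRB4 libraries 1, 2 and 3, and 44987032, 39805118 and 44496830 in control libraries 1, 2 and 3. Nothing in the labels says that each library is a separate mouse, and the p-values reflect only library-to-library spread, which may be technical. No pair of libraries of a group agreed within sampling noise (chi-square per degree of freedom 21.8 to 59.9). All 12 microglial markers were measured, with P2ry12, a purinergic receptor, at 12539 ± 1139 CPM (read counts relative to the scaled library total; SD, n = 3) in anti-LILRB4 and 13212 ± 377 CPM in control libraries. The sum of the 12 was at 52105 to 53601 CPM in anti-LILRB4 and 49611 to 51925 CPM in control libraries, without overlap. The transgene row of the antibody's target, LILRB4, was at 849.7, 1303 and 3294 CPM in anti-LILRB4 libraries and at 1028, 1029.8 and 1077 CPM in controls, so anti-LILRB4 library 3 stood apart. The transgene rows LILRA1, LILRB1 and LILRA2 were also highest in that library, at 546, 425 and 2259 CPM, whereas LILRP1 and LILRP2 were not. Without anti-LILRB4 library 3 the log2 fold changes of Ctsl and Ctss, described below, were -0.38 and 0.39. Summed neutrophil markers were at 333, 1431 and 416 CPM in anti-LILRB4 libraries 1, 2 and 3 and at 1484, 744 and 799.7 CPM in control libraries 1, 2 and 3, with all 12 markers detected. Summed monocyte markers (8 of 8 detected) were at 31.5 to 76.9 CPM in anti-LILRB4 and 47.1 to 104 CPM in control libraries. Summed border-associated macrophage markers (10 of 10) were at 51.5 to 82.4 CPM in anti-LILRB4 and 45.7 to 62.1 CPM in control libraries. Summed B cell markers (7 of 7) were at 662 to 743 CPM in anti-LILRB4 and 484 to 605 CPM in control libraries, and summed oligodendrocyte markers (8 of 8) at 159 to 171 CPM in anti-LILRB4 and 125 to 143 CPM in control libraries. Both sums were higher in every anti-LILRB4 library than in any control, and their part in the results was not tested. The astrocyte, endothelial, neuronal and T and NK cell sums overlapped between the groups. In bulk RNA, fewer cells of a type and less RNA per cell cannot be told apart.

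For the protease genes, anti-LILRB4 library 2 stood apart from the rest. It gave the highest value of the 6 libraries in 7 of the 10 genes and the lowest in Ctsc. The 10 genes together took 1.89, 2.35 and 2.03% of all counts in anti-LILRB4 libraries 1, 2 and 3, against 1.93, 1.90 and 1.90% in control libraries 1, 2 and 3. Each fold change of these genes is therefore also given without that library.

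**Figure D1:**
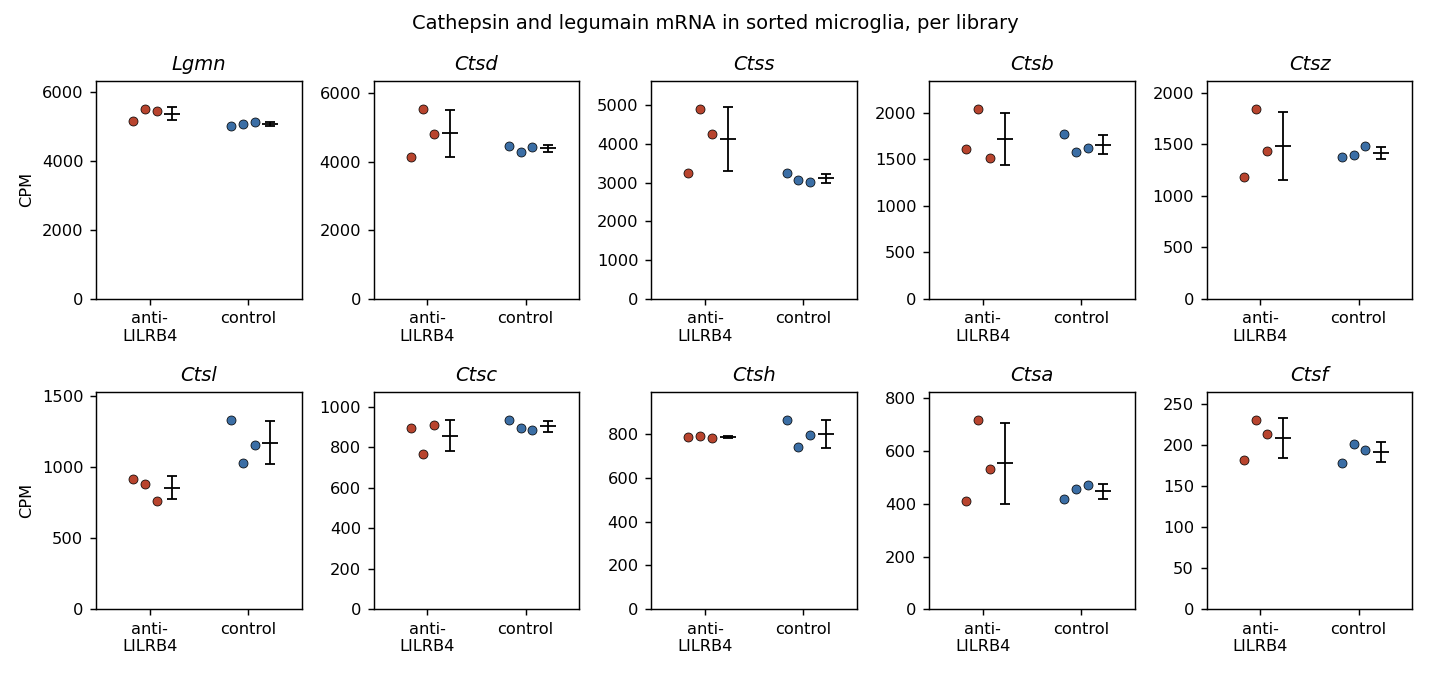
Expression of the 10 genes in CPM (y axis, from 0) in the 3 anti-LILRB4 libraries (left, red, replicates 1 to 3) and the 3 control libraries (right, blue); horizontal marks and bars are mean ± SD. Ctsl is lower in every anti-LILRB4 library than in any control, and the anti-LILRB4 points spread widely in Ctss, Ctsz and Ctsa with replicate 2 the highest.

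Several of these protease transcripts were among the most abundant of the sorted cells. By CPM, Lgmn ranked 13th, Ctsd 19th and Ctss 24th of 55493 genes, whereas Ctsa ranked 236th and Ctsf, the lowest of the 10, 750th. Per kilobase of merged exon, Ctss was at 3045 ± 610.0 CPM per kb in anti-LILRB4 and 2288 ± 88.6 in control libraries (SD, n = 3 each), and ranked 14th of 21817 protein-coding genes. Lgmn was at 2315 ± 76.5 CPM per kb in anti-LILRB4 and 2185 ± 22.3 in control libraries, and Ctsd at 2056 ± 293 in anti-LILRB4 and 1869 ± 45.4 in control libraries. The ranges of neighbours in this order overlapped, although in all 6 libraries Ctss exceeded Lgmn and Lgmn exceeded Ctsd. Ctsz followed at 1032 ± 231 CPM per kb in anti-LILRB4 and 984 ± 39.2 in control libraries, below every Ctsd value. Ctsb was at 284 ± 46.1 CPM per kb in anti-LILRB4 and 274 ± 17.0 in control libraries, apart from Ctsz above it and from Ctsh below it.

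The next 4 genes lay close together. Ctsh was at 174 ± 1.05 CPM per kb in anti-LILRB4 and 177 ± 13.7 in control libraries. Ctsl was at 132 ± 12.5 CPM per kb in anti-LILRB4 and 181 ± 23.2 in control libraries. Ctsc was at 148 ± 13.4 in anti-LILRB4 and 156 ± 4.55 in control libraries, and Ctsa at 117 ± 32.8 in anti-LILRB4 and 94.8 ± 5.84 in control libraries. Ctsf was lowest of the 10, at 41.5 ± 4.90 CPM per kb in anti-LILRB4 and 38.0 ± 2.41 in control libraries, and lay below Ctsa in all 6. The ranges of Ctsh and Ctsl, of Ctsl and Ctsc, and of Ctsc and Ctsa overlapped, whereas Ctsh lay above every Ctsc and every Ctsa value. The length used matters for this order. With the longest principal transcript in place of all merged exons, a choice made after seeing the data, Ctsh (485 ± 2.94 CPM per kb in anti-LILRB4 and 494 ± 38.1 in control libraries) passed Ctsb (363 ± 58.8 in anti-LILRB4 and 349.6 ± 21.7 in control libraries), and Ctsc passed Ctsl. By the mean of all 6 libraries the first 4 and the last 2 genes kept their places. By group means, Lgmn (2550 ± 26.1 CPM per kb) passed Ctss (2293 ± 88.8) in control libraries. Ctsc (363 ± 10.6) also passed Ctsb (349.6 ± 21.7) in control libraries. In anti-LILRB4 libraries Ctsa (152 ± 42.4) passed Ctsl (139 ± 13.1).

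Exons of some of these genes overlap other genes, and the library kit does not mark strand. Of the Ctsd exon bases, 34.4% are shared on the same strand with the predicted gene Gm49369, which was listed at 0 reads. Ctsb shares 12.8% of its exon bases with Fdft1, which had 4195 reads over all libraries. Ctsa shares 10.5% with Pltp, with 686 reads, and 6.87% with Neurl2, with 2429 reads. Of the Ctsl exon bases, 26.8% are shared with the antisense gene Gm47123, listed at 0 reads. The lowest count of any of the 10 proteases was 7890 reads, for Ctsf in control library 1. Reads in the shared stretches cannot be told apart by strand.

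With anti-LILRB4, Ctsl was the protease gene that stood lowest against controls and Ctss the gene that stood highest, and the other 8 lay between them. None of the 10 passed edgeR's quasi-likelihood test at a Benjamini-Hochberg adjusted p of 0.05, a threshold that 0.0% of the 18210 tested genes passed. At an unadjusted p under 0.05 in that test, 1 gene was higher (Ctss) and 1 lower (Ctsl), where 8.03% of all tested genes passed, 4.12% higher and 3.91% lower. The groups did not overlap in 3 of the 10 genes, 2 higher and 1 lower, against 14.7% of all tested genes. DESeq2 called 1 of the 10, against 1.1% of genes, and edgeR without a low-count filter called 2, against 0.847% of genes. Limma-voom called 0 of the 10, where it called 0.0% of all. The log2 fold changes of the 10 genes had a median of 0.08, with 7 positive and 3 negative, and those of all genes tested had a median of -0.01, with 8949 positive and 9261 negative.

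Ctsl encodes cathepsin L, a broad-specificity lysosomal endopeptidase (ENSMUSG00000021477, GRCm38 chromosome 13, 64359337 to 64370890, minus strand). It was at 917.7, 883 and 763 CPM in anti-LILRB4 libraries 1, 2 and 3, against 1330.1, 1029 and 1157 CPM in control libraries 1, 2 and 3. Every anti-LILRB4 library lay below every control, as in 7.8% of all genes tested, and control library 1 was the highest of all. The means were 855 ± 81.0 CPM in anti-LILRB4 and 1172 ± 151 CPM in control libraries (SD, n = 3 each). The log2 fold change was -0.46 (standard error 0.11), with a 95% interval of -0.71 to -0.20, an unadjusted p of 0.00253 and an adjusted p of 0.426 in edgeR. DESeq2 on the same counts called it lower, with an adjusted p of 0.0468, in a direction in which it called 0.553% of genes. Without the low-count filter edgeR called it too, with an adjusted p of 0.0252, where 0.33% of 35404 genes were called lower. Over all alternatives its adjusted p ran between 0.0252 and 0.673. In the authors' deposited table its log2 fold change was -0.45 with an adjusted p of 0.0578, where 0.981% of genes were at or under 0.05. Without control library 1 the log2 fold change was -0.36, and without anti-LILRB4 library 2 it was -0.47. Control library 1 also held the highest sum of neutrophil and of monocyte markers, and anti-LILRB4 library 2, with 1431 CPM of neutrophil markers, lay between the other anti-LILRB4 libraries in Ctsl. The part of those cells in the Ctsl values was not tested.

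Ctss encodes cathepsin S, an endopeptidase that stays active near neutral pH and trims the MHC class II invariant chain (ENSMUSG00000038642, GRCm38 chromosome 3, 95526786 to 95556403, plus strand). It was at 3249, 4889.8 and 4267 CPM in anti-LILRB4 libraries 1, 2 and 3, against 3241, 3072 and 3008 CPM in control libraries 1, 2 and 3. The groups did not overlap, with all anti-LILRB4 above all control values as in 6.94% of genes tested, but anti-LILRB4 library 1 lay only just above control library 1. The means were 4135 ± 828 CPM in anti-LILRB4 and 3107 ± 120.4 CPM in control libraries (SD, n = 3 each). The log2 fold change was 0.41 (standard error 0.13), with a 95% interval of 0.13 to 0.70, an unadjusted p of 0.00895 and an adjusted p of 0.503 in edgeR. The adjusted p was 0.164 in DESeq2, which called 0.546% of genes higher, and 0.0241 in edgeR without the low-count filter, which called 0.517% higher. Over all alternatives it ran between 0.0241 and 0.756. In the authors' deposited table the log2 fold change of Ctss was 0.42 with an adjusted p of 0.190. Without anti-LILRB4 library 2 the log2 fold change was 0.28, and without anti-LILRB4 library 1 it was 0.56.

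**Figure D2:**
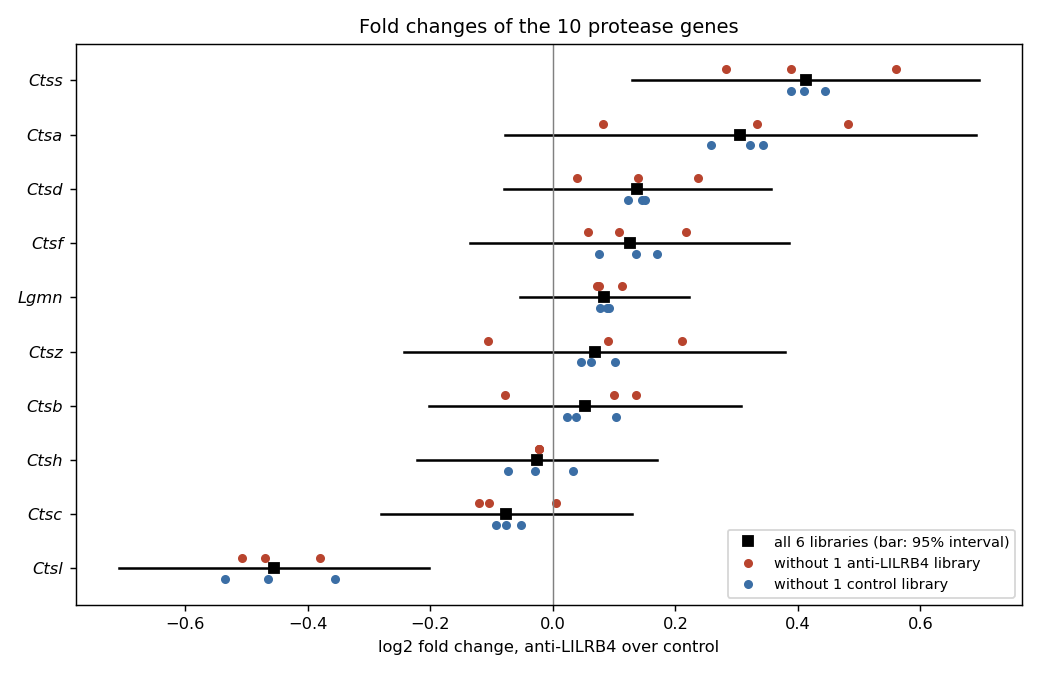
Log2 fold changes of the 10 genes, anti-LILRB4 over control (x axis), with all 6 libraries (squares, bars are 95% intervals) and with single libraries left out (red, an anti-LILRB4 library; blue, a control library). Only the intervals of Ctss and Ctsl do not include 0, and both keep their sign when any single library is left out.

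The region around the RefSeq transcription start was read for these genes, because many lysosomal genes share an E-box that the factor TFEB and its relatives bind. RefSeq promoter windows (250 bases before to 50 after a start, GRCm38.p6) were found for 8 of the 10 genes, with a second start each for Ctsa and Lgmn, so 10 windows in all. Ctsb and Ctsh had none in that table. Each window was searched on both strands for the E-box CACGTG, its extended form TCACGTGA, which contains it, the PU.1 motif GAGGAAGT, the interferon-response core (GAAA, any 2 bases, GAAA), and the PU.1 and IRF composite (GGAA, any 2 bases, GAAA). The windows of Ctss and Ctsl are shown for the genes at the ends of the range, and those of Ctsd and the second start of Ctsa for the extended E-box. They run 5′ to 3′ on the gene's strand and capitals mark every match.
Ctss, chr3:95526536-95526835, plus strand: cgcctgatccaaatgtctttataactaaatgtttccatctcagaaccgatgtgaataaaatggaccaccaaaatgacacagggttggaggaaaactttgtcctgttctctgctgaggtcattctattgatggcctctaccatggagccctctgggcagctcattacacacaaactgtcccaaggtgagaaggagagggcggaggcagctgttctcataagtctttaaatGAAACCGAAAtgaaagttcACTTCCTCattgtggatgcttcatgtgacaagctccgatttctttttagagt
Ctsl, chr13:64370471-64370770, minus strand: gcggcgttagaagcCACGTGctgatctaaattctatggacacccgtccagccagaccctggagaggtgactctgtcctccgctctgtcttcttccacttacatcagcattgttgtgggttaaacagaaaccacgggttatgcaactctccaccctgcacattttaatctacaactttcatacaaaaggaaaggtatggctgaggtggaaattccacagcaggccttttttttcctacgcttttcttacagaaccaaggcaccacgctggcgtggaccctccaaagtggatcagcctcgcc
Ctsd, chr7:142387778-142388077, minus strand: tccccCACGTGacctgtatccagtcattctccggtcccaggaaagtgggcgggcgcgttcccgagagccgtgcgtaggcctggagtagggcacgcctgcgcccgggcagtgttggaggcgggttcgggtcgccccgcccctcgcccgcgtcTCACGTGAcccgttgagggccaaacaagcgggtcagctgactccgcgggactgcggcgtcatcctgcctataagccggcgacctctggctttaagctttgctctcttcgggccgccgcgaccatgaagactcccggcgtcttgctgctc
Ctsa, chr2:164833523-164833822, plus strand: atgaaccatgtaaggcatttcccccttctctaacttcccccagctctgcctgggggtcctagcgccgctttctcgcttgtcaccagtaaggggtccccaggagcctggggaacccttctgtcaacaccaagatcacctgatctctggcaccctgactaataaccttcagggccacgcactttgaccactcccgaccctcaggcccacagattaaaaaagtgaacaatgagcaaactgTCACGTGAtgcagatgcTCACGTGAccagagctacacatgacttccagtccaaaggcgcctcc

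The Ctss window held no E-box. It held an interferon-response core beginning at position -21 from the start and a PU.1 motif, on the other strand, beginning at position -2. The Ctsl window held an E-box at position -236 and none of the other motifs. That window lies wholly inside the gene, downstream of the annotated gene start at 64370890. The Ctsd window held E-boxes at positions -245 and -98, with an extended E-box from -99. The Ctsd start used, at 142387827, lies inside the gene (annotated start 142388038), but its window reaches upstream of the annotated start. The second Ctsa window held extended E-boxes at positions -13 and 5. Its start, at 164833773, lies inside the gene, whose annotated start is at 164832873. An E-box was also present in the window of Ctsf (position -79) and in 1 of the 2 windows of Lgmn (position -49). That window belongs to the Lgmn start further inside the gene, at 102439092. The window of the other Lgmn start, at 102439728, held no match, nor did the first Ctsa window. Thus 5 of 8 genes had an E-box in a window, against 8.09% of 27025 genes with a window. The extended E-box was in 2 of 8, against 1.12% of all genes. The matches of Ctsl, Ctsa and Lgmn were only in windows wholly inside the gene. Such windows were not set apart in the shares over all genes. The PU.1 motif was in Ctss and Ctsc (3.69% of all genes), the interferon-response core in Ctss alone among the 8 (3.99% of all genes), and the composite in none of the 8 (3.16% of all genes). A match of letters shows no binding. The 5 genes with an E-box had log2 fold changes of -0.46 (Ctsl), 0.08 (Lgmn), 0.13 (Ctsf), 0.14 (Ctsd) and 0.31 (Ctsa). The part of the E-box in these values was not tested.

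Among the other cysteine endopeptidases, the groups overlapped for Ctsb and for Ctsf. Ctsb encodes cathepsin B, an abundant lysosomal protease that also removes dipeptides from carboxyl ends. It was at 1607, 2037 and 1515 CPM in anti-LILRB4 libraries 1, 2 and 3, against 1774, 1577 and 1623 CPM in control libraries 1, 2 and 3. Only anti-LILRB4 library 2 exceeded all controls. The log2 fold change of Ctsb was 0.05 (95% interval -0.20 to 0.31, adjusted p 0.941 in edgeR), and it was -0.08 without that library. Ctsf, encoding cathepsin F, which can also process the invariant chain in macrophages, was at 182, 231 and 214 CPM in anti-LILRB4 libraries and at 178, 202 and 194 CPM in controls. The groups overlapped, with a log2 fold change of 0.13 (95% interval -0.13 to 0.39, adjusted p 0.821 in edgeR), which was 0.06 without anti-LILRB4 library 2.

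The exopeptidases of the papain family also overlapped between groups. Ctsc encodes cathepsin C, or dipeptidyl peptidase I, which matures granule serine proteases. It was at 895, 769 and 912 CPM in anti-LILRB4 libraries 1, 2 and 3, against 935, 896 and 885 CPM in control libraries 1, 2 and 3. Anti-LILRB4 library 2 alone was low, and the log2 fold change of -0.08 (95% interval -0.28 to 0.13, adjusted p 0.869 in edgeR) was 0.01 without it. Ctsh, encoding the aminopeptidase cathepsin H, was at 782, 789 and 780.1 CPM in anti-LILRB4 libraries and at 861, 738 and 795 CPM in controls. All 3 anti-LILRB4 values fell inside the range of the controls, and the log2 fold change was -0.03 (95% interval -0.22 to 0.17, adjusted p 0.965 in edgeR), or -0.02 without library 2. Ctsz, encoding the carboxypeptidase cathepsin Z, was at 1180.3, 1840.0 and 1440.3 CPM in anti-LILRB4 libraries, against 1375, 1397 and 1482 CPM in controls. Its anti-LILRB4 libraries 1 and 2 lay on either side of all controls, and the log2 fold change of 0.07 (95% interval -0.24 to 0.38, adjusted p 0.935 in edgeR) turned to -0.11 without library 2.

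Ctsd, the aspartic protease cathepsin D, was at 4150.1, 5528 and 4821 CPM in anti-LILRB4 libraries 1, 2 and 3, against 4466, 4270.5 and 4443 CPM in control libraries 1, 2 and 3. Anti-LILRB4 libraries 2 and 3 were above all controls and library 1 below them. The log2 fold change was 0.14 (95% interval -0.08 to 0.36, adjusted p 0.768 in edgeR), 0.04 without library 2 and 0.24 without library 1. Ctsa, the carboxypeptidase cathepsin A that also protects the glycosidases Neu1 and Glb1, was at 410.2, 717 and 531 CPM in anti-LILRB4 libraries and at 417, 455 and 469.9 CPM in controls. It had the widest range over the 6 libraries, 0.81 on the log2 CPM scale, next to 0.80 for Ctsl. Its log2 fold change of 0.31 (95% interval -0.08 to 0.69, adjusted p 0.688 in edgeR) was 0.08 without anti-LILRB4 library 2.

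Lgmn, encoding legumain, which also cuts the single-chain forms of several cathepsins, varied least. It was at 5175, 5499 and 5463 CPM in anti-LILRB4 libraries 1, 2 and 3, against 5029, 5066 and 5131 CPM in control libraries 1, 2 and 3. All anti-LILRB4 libraries lay above all controls, but the whole range over the 6 libraries was 0.13 on the log2 CPM scale. The log2 fold change was 0.08 (95% interval -0.05 to 0.22, adjusted p 0.778 in edgeR), and it was 0.08 without library 2 and between 0.07 and 0.11 when any single library was left out. With Ctss, Lgmn made 2 of the 10 genes with all anti-LILRB4 values above all controls.

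**Figure D3:**
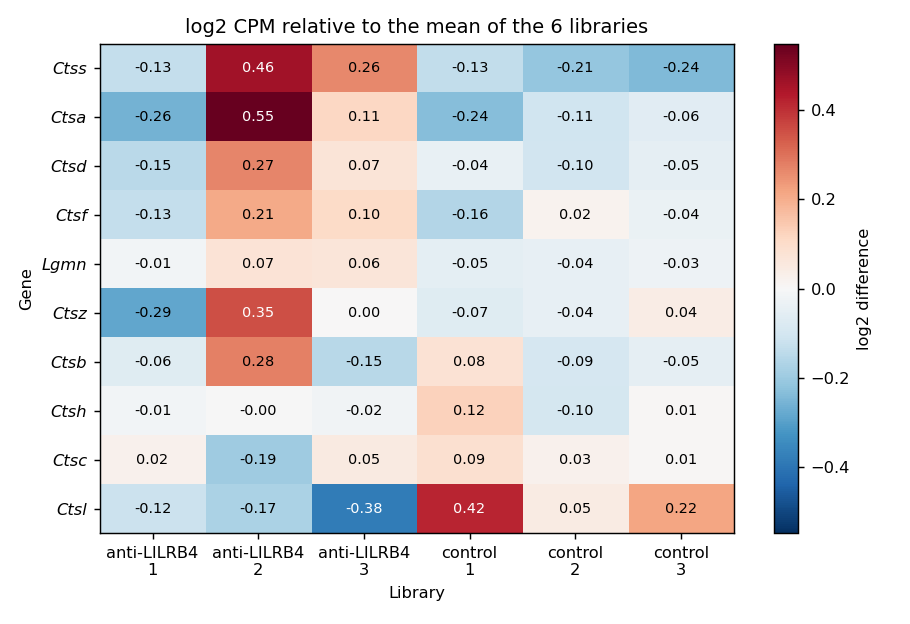
Log2 CPM of each gene (rows, ordered by log2 fold change) in each library (columns, anti-LILRB4 on the left), relative to the gene's mean over the 6 libraries. Anti-LILRB4 library 2 is red in 7 rows with its largest value, 0.55, in Ctsa, while Ctsl runs from -0.38 in anti-LILRB4 library 3 to 0.42 in control library 1.

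The 10 genes differed in how they varied over the libraries. As a measure of likeness, the root mean square difference of centred log2 CPM was taken over the 6 libraries, where smaller means more alike. Among the pairs of the 10 genes it was smallest for Ctsd and Ctsf (0.08) and for Ctsd and Ctsz (0.09), and largest for Ctss and Ctsl (0.48) and for Ctsl and Ctsa (0.47). Among 4267 other protein-coding genes with a mean log2 CPM of at least 5, the nearest to Ctss were C1qb, a complement component, at 0.05, and Cst3, which encodes the cathepsin inhibitor cystatin C, at 0.06. C1qb was at 3288, 4926 and 4571 CPM in anti-LILRB4 libraries and at 3267, 3201 and 3338 CPM in controls. The nearest to Ctsl were Retreg2 and Lnpk, which encode membrane proteins of the endoplasmic reticulum, at 0.06 and 0.07, with log2 fold changes of -0.42 and -0.36 and edgeR adjusted p of 0.506 and 0.525. The nearest to Ctsd were Sdf4 (0.02) and Gapdh (0.04), to Lgmn Ptp4a2 (0.02) and Siglech (0.03), and to Ctsa Arid5b (0.07) and Sf3a1 (0.08). These distances were searched over many genes and 6 libraries and are given as a description.

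Ratios of read counts within a library do not depend on how libraries are scaled. The ratio of Ctss to Ctsl was 3.54, 5.54 and 5.59 in anti-LILRB4 libraries 1, 2 and 3, against 2.44, 2.98 and 2.60 in control libraries 1, 2 and 3. Its means were 4.89 ± 1.17 in anti-LILRB4 and 2.67 ± 0.281 in control libraries (SD, n = 3 each), with no overlap. This pair was chosen after its values were seen, and no test was made of it. The ratio of Ctsl to each of the other 9 genes differed without overlap in 8, all but Ctsz, where 37.1% of its ratios to all other tested genes did so. For Ctss the number was 5 of 9, where 23.8% did so over all other tested genes. The ratio of Ctss to Cst3 overlapped between the groups, at 0.282, 0.284 and 0.259 in anti-LILRB4 libraries and at 0.273, 0.293 and 0.282 in controls. Cst3 was above found as a gene nearest to Ctss in these same libraries, so this overlap is no separate result. The ratio of Ctsl to Cst3 likewise largely repeats that of Ctsl to Ctss. The ratio of Ctsl to Cst3 was 0.0591 ± 0.0180 in anti-LILRB4 and 0.106 ± 0.00726 in control libraries, and that of Ctsl to Lgmn 0.159 ± 0.0188 in anti-LILRB4 and 0.231 ± 0.0310 in control libraries, both without overlap.

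**Figure D4:**
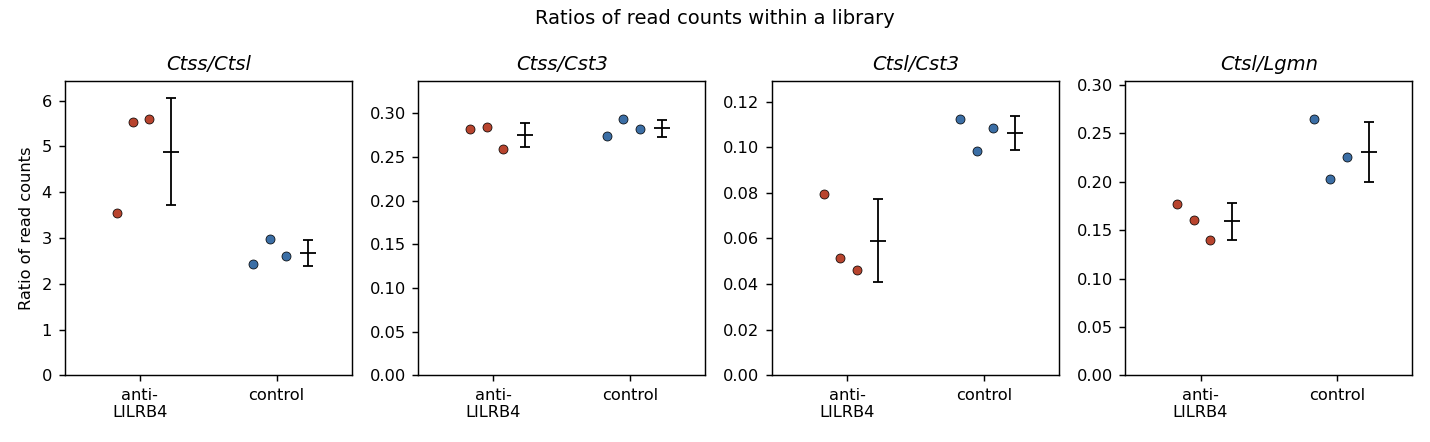
Ratios of read counts between 2 genes within each library (y axis, from 0) in the anti-LILRB4 (left, red) and control (right, blue) libraries; marks and bars are mean ± SD. The Ctss to Ctsl ratio is above all controls in every anti-LILRB4 library, Ctsl to Cst3 and Ctsl to Lgmn are below, and Ctss to Cst3 overlaps. Cst3 is a gene nearest to Ctss in library pattern, so its ratios are no separate result.

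The inhibitors of these enzymes did not go one way. Of 14 cystatin genes listed, 3 were tested, and edgeR called 0, while an unadjusted p under 0.05 was reached by 1 higher gene, Cst3, and 1 lower gene, Cst7. Of all tested genes, 4.12% were higher and 3.91% lower at that threshold. Cst3, the secreted cystatin C, was at 11518, 17208 and 16477 CPM in anti-LILRB4 libraries 1, 2 and 3, against 11859, 10491 and 10676 CPM in control libraries 1, 2 and 3, with overlap between anti-LILRB4 library 1 and control library 1. Its log2 fold change was 0.45 (standard error 0.13, adjusted p 0.461 in edgeR). Cst7 encodes cystatin F, which reaches lysosomes and inhibits cathepsin C and is known as a gene of amyloid-associated microglia. It was at 24.5, 32.2 and 13.3 CPM in anti-LILRB4 libraries and at 65.1, 28.6 and 44.2 CPM in controls. Its log2 fold change was -0.97 ± 0.34 (SE, edgeR adjusted p 0.523). Leaving out control library 1 gave -0.64, and leaving out anti-LILRB4 library 3 gave -0.69. Cstb, encoding the cytosolic cystatin B, had a log2 fold change of -0.17 (adjusted p 0.792 in edgeR). Without the low-count filter edgeR called Cst3 higher (adjusted p 0.00308) and Cst7 lower (3.05e-05), and DESeq2 called neither.

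Of 6 other lysosomal peptidases tested, 5 had negative log2 fold changes, as did 9261 of all 18210 tested genes. The median was -0.18, and edgeR called 0. At an unadjusted p under 0.05 in edgeR, 1 gene was lower, against 3.91% of all tested genes. That gene was Dpp7, a dipeptidyl peptidase, at 44.4, 50.3 and 51.0 CPM in anti-LILRB4 libraries and at 68.9, 52.0 and 76.1 CPM in controls. Its groups did not overlap, and its log2 fold change was -0.44 (adjusted p 0.534 in edgeR). Tpp1, a tripeptidyl peptidase, Prcp, a prolyl carboxypeptidase, and Scpep1, a serine carboxypeptidase, had log2 fold changes of -0.15, -0.14 and -0.22 (adjusted p 0.806, 0.764 and 0.643 in edgeR). Of 14 other cathepsin genes listed, 3 were tested, and edgeR called 0, with 0 at an unadjusted p under 0.05. Ctso, the most abundant of these at 165, 118 and 124 CPM in anti-LILRB4 and 153, 151 and 169 CPM in control libraries, had a log2 fold change of -0.22. Ctsw and Ctse had means under 5 CPM, with log2 fold changes of -0.34 and 0.88 and overlapping groups. The Ctsw value was -0.0097 without control library 2 and -0.57 without control library 3. The Ctse value ran from 0.58, with anti-LILRB4 library 2 left out, to 1.33, with control library 3 left out.

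Genes that sort the enzymes to lysosomes or work beside them were tested in 16 of 16, with a median log2 fold change of 0.15. Of these log2 fold changes 13 were positive, as were 8949 over all 18210 tested genes. EdgeR called 0, and 1 gene was higher at an unadjusted p under 0.05, against 4.12% of all tested genes. Sort1, the sorting receptor sortilin, was that gene, at 53.9, 66.5 and 68.3 CPM in anti-LILRB4 libraries and at 39.9, 54.8 and 50.4 CPM in controls (log2 fold change 0.38, adjusted p 0.580 in edgeR). Grn, encoding progranulin, and Psap, encoding prosaposin, both cleaved by cathepsins, had log2 fold changes of -0.01 and 0.16 with overlapping groups. Igf2r, the large mannose 6-phosphate receptor, had a log2 fold change of 3.19 at levels of 1.73, 0.613 and 0.0243 CPM in anti-LILRB4 libraries and 0.249, 0 and 0 CPM in controls, so that value rests on few reads. Among 12 regulators of the lysosomal gene network that TFEB leads, 6 log2 fold changes were positive and 6 negative, and the median was 0.01. EdgeR called 0, with 1 lower (Mitf) at an unadjusted p under 0.05, against 3.91% of all tested genes. Lamtor1 and Flcn, the most abundant, had log2 fold changes of 0.03 and 0.15, and Mitf, a relative of TFEB, and Mcoln1, a lysosomal calcium channel, had -0.46 and -0.48 (adjusted p 0.601 and 0.630 in edgeR).

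Of 11 genes of MHC class II antigen processing, in which Ctss acts, 8 had positive log2 fold changes, as did 8949 of all 18210 tested genes. EdgeR called 0, with 2 higher at an unadjusted p under 0.05, against 4.12% of all tested genes. Cd74, the invariant chain itself, was at 151, 233 and 243 CPM in anti-LILRB4 libraries and at 116, 96.3 and 118 CPM in controls, with a log2 fold change of 0.92 (adjusted p 0.410 in edgeR and 0.000458 in DESeq2). The sum of the B cell markers was higher in every anti-LILRB4 library too. Ighm, an immunoglobulin heavy chain and the most abundant of them, was at 514 ± 29.6 CPM in anti-LILRB4 and 404 ± 8.05 CPM in control libraries (SD, n = 3 each). The part of B cell transcripts in the Cd74 values was not tested. H2-Oa, a class II accessory chain, had a log2 fold change of 0.44 with groups that did not overlap (adjusted p 0.566 in edgeR). H2-DMa and H2-DMb1, the most abundant of the list, stood at 0.04 and -0.11 on the log2 fold change scale, and the list's median was 0.04. Of 9 granule proteases that cathepsin C matures, 1 was tested, Mcpt8, at 0, 2.63 and 0.412 CPM in anti-LILRB4 libraries and at 1.24, 1.36 and 1.55 CPM in controls.

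**Figure D5:**
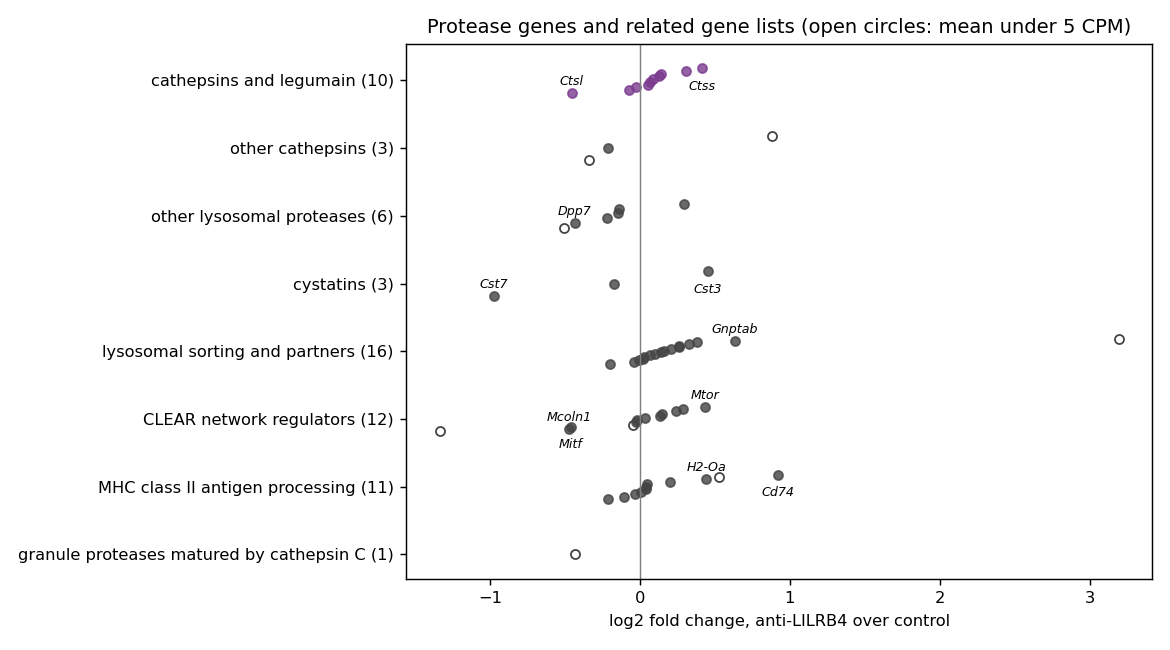
Log2 fold changes, anti-LILRB4 over control (x axis), of the tested genes of each list (rows, number tested in brackets); filled circles have a mean of at least 5 CPM and open circles less. The 10 protease genes (purple) lie between -0.46 for Ctsl and 0.41 for Ctss, and Cd74, at 0.92, is the highest of the filled circles.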

How the data were processed

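RNA from sorted microglia was sequenced in 3 libraries of mice given the anti-LILRB4 antibody and 3 of mice given the control antibody, and groups and replicate numbers come from the sample titles. The authors deposited raw counts (whole reads for each Ensembl gene) and a table of their own comparison. Per the file headers that table holds DESeq2 columns: a mean normalized count (a signal), a log2 fold change and its error, a score (their ratio), a p-value and an adjusted p-value. Tools listed in the submitters' processing notes, with no roles, are DESeq2 1.38.3, Salmon, STAR, Subread and featureCounts. Build, annotation and multi-mapped reads: not given in the sources used here. The kit named in the labels' protocols does not mark strand.

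The 287 rows that repeated an identifier with identical counts were dropped, which left 55493 genes. Library totals were 39805118 to 56345514 reads. Genes passing edgeR's filterByExpr (minimum count 10) were tested with edgeR 4.0.16 in R 4.3.3 (TMM scaling, quasi-likelihood F test of treatment, no covariate, Benjamini-Hochberg over all tested genes, called at 0.05). CPM were scaled by TMM, and a prior count of 2 entered log2 CPM. The standard error was taken as the absolute log2 fold change over the root of F, and intervals are at 95%. The test was run on counts simulated from these libraries before use. Alternatives were DESeq2 1.42.0, limma-voom (limma 3.58.1), other scalings and filters, robust dispersion, protein-coding genes only, a replicate block, an adjusted p of 0.1, and each library left out. A length per principal transcript, and counts of the 10 genes at an unadjusted p under 0.05 in each refit, were added after seeing the data.

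The 10 genes and all lists were chosen with earlier results of these data known. Named by rule were the 10 genes, the most abundant pair and the pair with the smallest p of each of the 7 related lists, and the closest pair of genes by library pattern for the 3 most abundant and the 3 smallest-p genes. Chosen outside it, after their values were seen, were Gm49369, Gm47123, Fdft1, Pltp, Neurl2, the transgene rows beside LILRB4 and the count ratios. Coordinates are GENCODE M21 (GRCm38), joined by identifier, because the authors' starts matched that build for only 499 of 24360 genes. Plots used Python 3.11.15 and matplotlib 3.10.9.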

Additional observations from a re-analysis of the deposited data

How the results depend on the processing

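In edgeR with all other scalings, robust dispersion, a stricter CPM filter, protein-coding genes only, limma-voom or an adjusted p of 0.1, 0 of the 10 protease genes were called. DESeq2 called 0 of the 10 higher and 1 lower, Ctsl (log2 fold change -0.45), and over all genes 84 higher and 85 lower. Without the low-count filter edgeR called 1 higher, Ctss (0.42), and 1 lower, Ctsl (-0.45), and over all genes 183 higher and 117 lower. Among the related lists DESeq2 called 1 higher, and edgeR without the filter 2 higher and 1 lower. The cause of these differences was not tested. At an unadjusted p under 0.05, edgeR without the filter gave 2 of the 10 higher, and the fits without single libraries gave 1 to 3 higher (3 without anti-LILRB4 library 1) and 1 lower in every such fit. The share of all genes at that threshold is given for the main fit only (8.03%), so these counts have no share to be set against. In the fits without single libraries 0 genes were called, and the log2 fold changes ran from -0.11 to 0.21 for Ctsz, -0.079 to 0.14 for Ctsb, -0.073 to 0.032 for Ctsh, -0.12 to 0.0057 for Ctsc, -0.18 to 0.10 for Grn, -0.0096 to 0.089 for Lamtor1, -2.74 to 0.14 for Mcpt8 and -0.051 to 0.29 for Psap. Grn was also at 0.0035 with library size only. The other genes named by the rule for genes kept their sign in every refit made of them; genes named only as markers, overlapping neighbours or background were not refitted. Leaving out 1 library moved some of these by over 1.5 times without a change of sign. Among them, Ctso ran from -0.38 to -0.12, Cstb from -0.26 to -0.037, Tpp1 from -0.26 to -0.087, Flcn from 0.056 to 0.28, Mcoln1 from -0.63 to -0.31, H2-DMb1 from -0.14 to -0.034 and Igf2r from 1.91 to 8.17. Replicate numbers pair nothing stated in the labels, and deviations of same-numbered libraries had correlations of -0.014 to 0.029, and not every library correlated best with its own number. With the replicate block 0 of the 10 genes were called (Ctsl -0.45, adjusted p 0.311, and Ctss 0.39, adjusted p 0.405) and 0 genes in all. With 3 libraries per group, the intervals of the 8 genes other than Ctss and Ctsl leave changes of up to 0.69 on the log2 scale undecided.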
